A study of Gallus gallus with 48 samples.

Results

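The genes described here are those whose mRNA was far more abundant in chicken brain than in heart, liver and lung. They were chosen from FPKM values (fragments mapped to a gene, scaled by the length of its transcript and by the size of the library) of 17108 genes: a gene needed a mean of at least 10 FPKM over the 12 brain libraries, which 5364 genes had. These genes were ranked by log2((B + 1)/(M + 1)), where B is the brain mean and M the highest of the heart, liver and lung means. The first 200 genes were taken, after TPH2, CBLN4, STMN2 and HPCAL4 had been left out. The brain excess of the 200 genes was therefore fixed by their choice and was not tested, whereas the 4 groups of birds played no part in it.

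RNA-seq was done on brain, heart, liver and lung, 48 libraries in all, and each tissue had 4 groups of 3 libraries. TC were Tibetan chickens and HLC lowland chickens sampled at 3300 m, and LTC were Tibetan chickens and LC lowland chickens sampled at 670 m. HLC and LTC were read from the code and the altitude label, since no source used here spells them out. No source used here gives the breed, sex, age, brain region or time spent at altitude, or says that libraries of a group are from separate birds, so p-values measure the spread between these libraries. Altitude cannot be told apart from the place of sampling and the keeping there.

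Brain-enriched transcripts come mainly from neurons and glia. Neurons need vesicular transporters that load glutamate into synaptic vesicles, receptors and ion channels that carry the signal, and adhesion molecules that hold synapses together, while astrocytes remove glutamate and move water across their membranes. Whole tissue mixes these cells, so fewer cells of a type and less RNA per cell cannot be told apart.

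Enrichment ranged from 4.58 to 9.01 on the log2 scale, with a median of 5.24. Mean brain levels of the 200 genes ran from 24.2 to 1527 FPKM, with a median of 80.4 FPKM. The next tissue was lung for 95 genes, heart for 85 and liver for 20, and its mean was under 1 FPKM for 135 of the 200 genes. The last gene inside the rank, ENSGALG00000005631, stood at 4.58 and the one before it, ENSGALG00000026560, at 4.59, whereas the first genes outside, ENSGALG00000007441 and ENSGALG00000027920, both stood at 4.57. The 200 genes made up 3.09 to 5.25 percent of the summed FPKM of the brain libraries.

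Of the 200 genes, 198 were at 1 FPKM or more in every brain library. The other 2 owed their place to 1 library each. ENSGALG00000025605 was listed at 1201 FPKM in TC replicate 1 and ENSGALG00000017836 at 306 FPKM in LTC replicate 1, and both were at 0 in the other 11 brain libraries. Both failed the filter of at least 1 FPKM in at least 3 libraries, so 198 genes were tested.

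Only 14 of the 200 genes carried a symbol in the sources used here, as did 1184 genes (6.92%) of the whole table, so most of the 200 genes have no named function here. Of the listed markers of brain cell types, only AQP4 and SLC1A2 had a symbol in the table, 2 of the 5 for astrocytes. Both were among the 200 genes, at brain means of 104 and 145 FPKM. No neuron, oligodendrocyte, microglia, endothelial, choroid plexus or blood marker of the lists had a symbol, so the cell makeup of the libraries could not be checked from them. TUBB3 and SLC17A6, neuronal genes described below, were not on the marker lists.

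In order of rank the named genes were GPM6A (rank 9), KBP (13), SLC17A6 (21), NEUROD1 (23), AQP4 (34), TUBB3 (44), SLC1A2 (49), SPOCK1 (92), GPR22 (96), NRXN3 (127), CADM2 (142), NELL2 (167), KCNS2 (195) and GABARB (197). GABARB is listed by RefSeq as a synonym of GABRB2, a beta subunit of the GABA-A receptor. All of them lay under 10 FPKM in the mean of their next tissue, and the highest such mean was 9.16 FPKM, for NELL2 in liver.

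**Figure D1:**
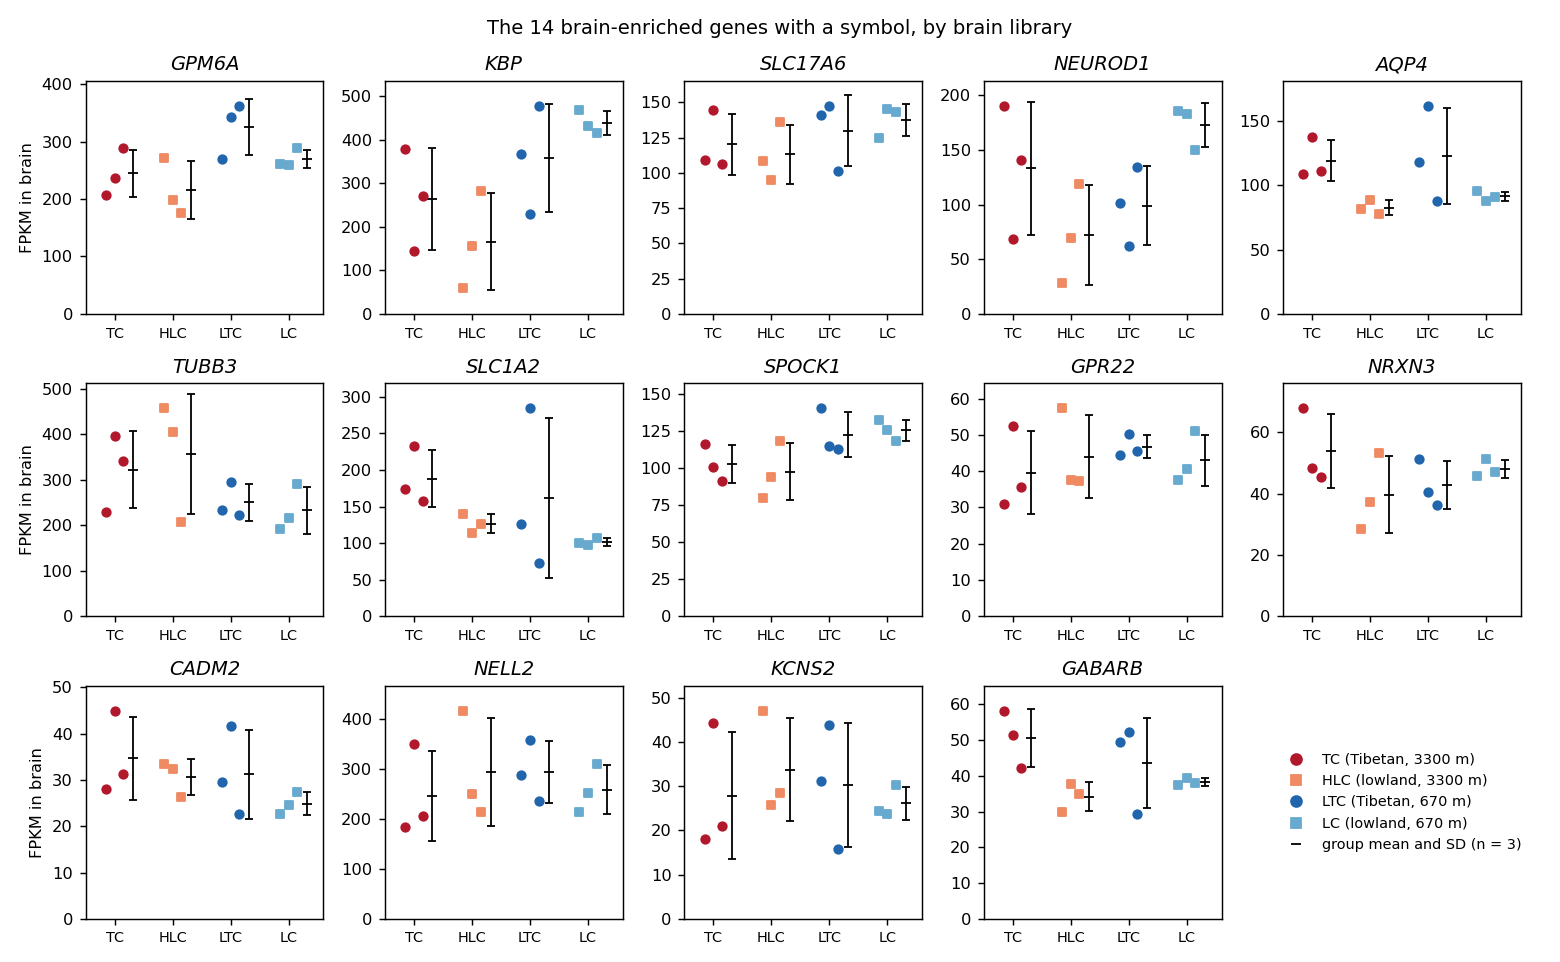
FPKM of the 14 named brain-enriched genes in the 12 brain libraries, 1 panel per gene with its own scale from 0. Points are libraries in the groups TC, HLC, LTC and LC, and black bars are the group mean and SD (n = 3). KBP and NEUROD1 were lowest in HLC replicate 1, at 59.3 and 28.2 FPKM.

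The glutamate genes were SLC17A6, the vesicular transporter VGLUT2 that marks many excitatory neurons, and SLC1A2, the glial transporter that clears glutamate from the synaptic cleft. SLC17A6 (chromosome 5) was at 109, 145 and 107 FPKM in TC replicates 1 to 3, 109, 94.8 and 136 in HLC, 141, 147 and 101 in LTC, and 125, 146 and 143 in LC. The 4 groups overlapped, and its SD over the 12 libraries, 0.23 on the log2 scale, was among the smallest of the named genes. SLC1A2 (chromosome 5) was at 175, 232 and 158 FPKM in TC, 140, 114 and 127 in HLC, 127, 284 and 73.4 in LTC, and 99.8, 97.2 and 107 in LC. Here the Tibetan birds at 670 m covered the whole range, with both the highest and the lowest library of all 12, while the 3 LC libraries lay close together.

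AQP4 (chromosome 2), the water channel of astrocyte end-feet, was at 109, 137 and 111 FPKM in TC, 81.2, 88.8 and 77.9 in HLC, 118, 162 and 87.6 in LTC, and 95.3, 87.9 and 91.0 in LC. All TC libraries lay above all HLC and LC libraries, but LTC replicate 3 lay among the lowland birds. GABARB (chromosome 13) was at 58.2, 51.6 and 42.1 FPKM in TC, 29.9, 37.7 and 34.9 in HLC, 49.4, 52.4 and 29.2 in LTC, and 37.3, 39.4 and 38.0 in LC. It had the same arrangement, with TC above both lowland groups and LTC replicate 3 lowest. How many of all genes have TC above both lowland groups was not counted, and neither gene passed the threshold for chicken type below.

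The cytoskeleton and axon genes were TUBB3, the neuronal beta tubulin, and GPM6A, a membrane glycoprotein that promotes neurite outgrowth. TUBB3 (chromosome 11) was at 229, 397 and 343 FPKM in TC, 457, 405 and 208 in HLC, 233, 296 and 222 in LTC, and 192, 217 and 290 in LC. The 4 libraries above 300 FPKM were all from 3300 m, yet HLC replicate 3 and TC replicate 1 lay among those from 670 m. GPM6A (chromosome 4) was at 208, 237 and 289 FPKM in TC, 272, 197 and 176 in HLC, 270, 342 and 362 in LTC, and 262, 259 and 288 in LC. Its 4 lowest libraries were from 3300 m and its 2 highest from LTC, and the altitudes overlapped between 259 and 289 FPKM.

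KBP (chromosome 21) is in chicken the symbol of the kainate-binding protein, a relative of the ionotropic glutamate receptors known from Bergmann glia of the cerebellum. It was at 378, 144 and 271 FPKM in TC, 59.3, 157 and 282 in HLC, 366, 229 and 477 in LTC, and 468, 430 and 415 in LC. The 3 LC libraries lay together near the top, LTC replicate 3 was highest, and HLC replicate 1 was far below the rest. NEUROD1 (chromosome 7), a transcription factor of neuronal differentiation that cerebellar granule cells express strongly, was at 190, 68.9 and 140 FPKM in TC, 28.2, 69.0 and 119 in HLC, 101, 61.8 and 134 in LTC, and 185, 183 and 149 in LC. Again HLC replicate 1 was lowest, while LC replicates 1 and 2 and TC replicate 1 were highest. These 2 genes had the largest SD of the 14 over the brain libraries, 0.89 for KBP and 0.82 for NEUROD1 on the log2 scale.

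SPOCK1 (chromosome 13), a secreted proteoglycan of the brain matrix, was at 117, 101 and 91.5 FPKM in TC, 80.3, 94.3 and 118 in HLC, 140, 115 and 113 in LTC, and 133, 126 and 118 in LC. Its SD, 0.23 on the log2 scale, was the smallest of the named genes, and its 4 lowest libraries were from 3300 m. NRXN3 (chromosome 5) encodes a presynaptic adhesion molecule and ranged from 28.4 to 67.8 FPKM with a median of 46.5 FPKM. A further gene of the table has the same symbol, NRXN3, at a brain mean of 5.93 FPKM, so how reads were split between these models is uncertain. CADM2 (chromosome 1), a synaptic cell adhesion molecule, ranged from 22.6 to 44.9 FPKM, and its 2 highest libraries were TC replicate 2 and LTC replicate 2.

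The remaining named genes differed mainly between libraries of the same group. NELL2 (chromosome 1), a secreted glycoprotein of neurons, ranged from 184 FPKM in TC replicate 1 to 415 FPKM in HLC replicate 1. KCNS2 (chromosome 2), a silent subunit that modifies voltage-gated potassium channels, ranged from 15.7 FPKM in LTC replicate 3 to 47.0 FPKM in HLC replicate 1. GPR22 (chromosome 1), an orphan G protein-coupled receptor, ranged from 30.9 FPKM in TC replicate 1 to 57.3 FPKM in HLC replicate 1. For all 3 genes HLC replicate 1 was thus the highest of the 12 libraries.

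On the first principal component of the 198 genes in brain, which held 52.0% of their variance, the 4 groups overlapped. It placed HLC replicate 1 at -9.83, TC replicate 2 at -4.54 and the other 10 libraries between -2.72 and 4.63. KBP and NEUROD1 had the fifth and the sixth highest loading of the 198 genes on it, and the top 4 genes had no symbol. Without HLC replicate 1, the count of brain-enriched genes past the threshold for altitude given below was the same, 11, of which 9 were shared. What share of all genes passed without that library is not given here.

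KBP, as the named gene with the largest spread, was compared with the other 13 named genes across the 12 brain libraries on log2(FPKM + 1). NEUROD1 was most like it, with Pearson's r = 0.92 (permutation p = 0.00023, adjusted p = 0.0015 over 13 genes) and Spearman's rho = 0.79 (permutation p = 0.0035, adjusted p = 0.015). Without the 2 libraries farthest from the KBP median, r was 0.80, and within the 6 libraries of each altitude it was 0.99 at 3300 m and 0.91 at 670 m. TUBB3 ran the other way, with r = -0.86 (permutation p = 0.00013, adjusted p = 0.0015) and rho = -0.83 (permutation p = 0.0016, adjusted p = 0.010), and r was -0.78 without those 2 libraries, -0.82 at 3300 m and -0.70 at 670 m. The permutations took no account of the 4 groups, so differences between groups enter these p-values and those below.

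SPOCK1 had r = 0.82 with KBP (permutation p = 0.0010, adjusted p = 0.0045), but rho = 0.64 (permutation p = 0.028) did not pass the adjustment (adjusted p = 0.060), and r fell to 0.66 without the 2 libraries. Its r was 0.81 at 3300 m and 0.21 at 670 m. KCNS2 had r = -0.70 (permutation p = 0.0100, adjusted p = 0.032) and rho = -0.70 (permutation p = 0.014, adjusted p = 0.037), and r was -0.41 without the 2 libraries, HLC replicate 1 and TC replicate 2, but -0.85 within 3300 m and -0.86 within 670 m, where neither of them lies. CADM2 had r = -0.67 (permutation p = 0.017, adjusted p = 0.044) and rho = -0.92 (permutation p = 0.00013, adjusted p = 0.0017), with r = -0.76 without the 2 libraries, -0.52 at 3300 m and -0.99 at 670 m. For NELL2, r was -0.65 (permutation p = 0.020, adjusted p = 0.044) and -0.18 without the 2 libraries, against -0.95 within 3300 m and -0.85 within 670 m. For KCNS2 and NELL2 the pooled r was thus weaker without those 2 libraries, and it was not tested there. Within each altitude (n = 6) r was strong, but both libraries are from 3300 m, so only the 670 m values are apart from them. The other 7 named genes had no adjusted p under 0.05 for r. One of them, SLC1A2, passed for rho alone, at -0.73 (permutation p = 0.0097, adjusted p = 0.032).

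Among all 197 other brain-enriched genes tested, 10 (5.08%) had r of 0.9 or more with KBP, and 5 (2.54%) had r of -0.9 or less. Among all 11613 other genes tested in brain these shares were 0.973% and 0.568%. Those genes include low ones, and the shares were not compared among genes of like level. These correlations are across 12 libraries that share the same groups and are given as a description.

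**Figure D2:**
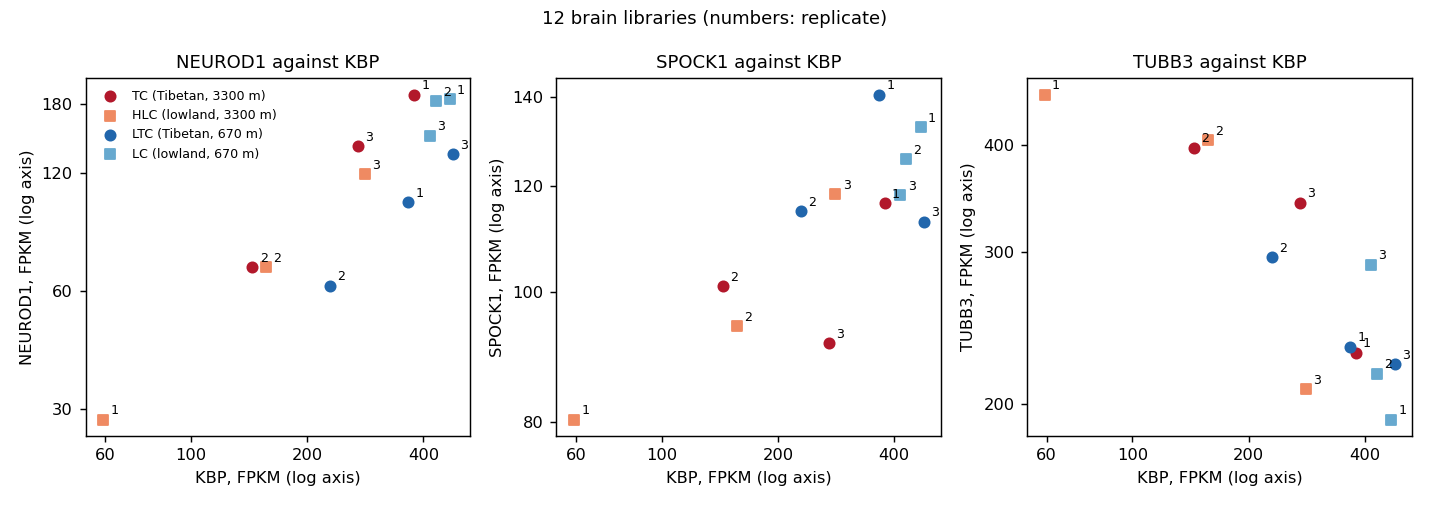
NEUROD1, SPOCK1 and TUBB3 against KBP in the 12 brain libraries, FPKM on log axes, with colours and symbols for the group and numbers for the replicate. NEUROD1 rose with KBP (r = 0.92), as did SPOCK1 (r = 0.82), and TUBB3 fell with it (r = -0.86), with HLC replicate 1 at the end of all 3 plots.

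The first comparison asked which brain-enriched genes differed with altitude, setting both groups at 3300 m (TC and HLC averaged) against both at 670 m (LTC and LC averaged). Levels were compared with limma on log2(FPKM + 1), with the p-values adjusted by the Benjamini-Hochberg method over all 11614 genes tested in brain and a threshold of 0.05. At 3300 m, 10 of the 198 genes were higher (5.05%, against 1.97% of all genes tested) and 1 was lower (0.505%, against 0.293%). Both directions together came to 5.56%, against 2.26% of all genes. The brain-enriched genes had brain means of at least 24.2 FPKM, while all genes tested include low ones, whose differences this scale shrinks. Here and in the brain comparisons below, the shares were not compared among genes of like level. At an unadjusted p under 0.05 there were 54 genes (27.3%, against 17.2% of all genes). In 15 brain-enriched genes (7.58%) all 6 libraries from 3300 m lay above all 6 from 670 m, as in 2.05% of all genes, and in 1 (0.505%) they lay below, as in 0.465%. The median log2 difference was 0.07 for the brain-enriched genes and 0.04 for all genes, and it was positive for 125 of the 198 (63.1%, against 59.6% of all genes). Without HLC replicate 1 both medians were 0.04.

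**Figure D3:**
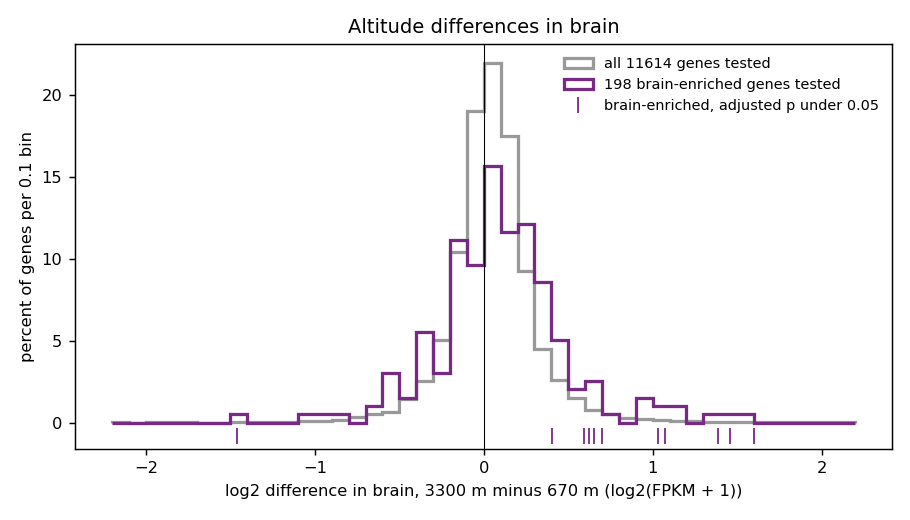
Share of genes per 0.1 bin of the log2 difference between 3300 m and 670 m in brain, for all 11614 genes tested (grey) and the 198 brain-enriched genes (purple). Ticks under the axis mark the 11 brain-enriched genes past the threshold, 10 of them above 0, and 4 genes of the table lay beyond 2.2 on either side.

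None of the 11 genes had a symbol. ENSGALG00000000317 was at 137, 133 and 139 FPKM in TC, 123, 133 and 121 in HLC, 56.7, 35.4 and 62.4 in LTC, and 73.3, 72.9 and 82.6 in LC. Every library from 3300 m lay above every library from 670 m, and the LTC libraries lay below the LC libraries. The difference was 1.07 ± 0.13 (SE) on the log2 scale (limma, adjusted p = 0.0030).

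ENSGALG00000026903 had the largest difference of the 11. It was at 62.9, 80.6 and 72.9 FPKM in TC, 95.1, 108 and 53.3 in HLC, 26.8, 16.3 and 28.1 in LTC, and 19.3, 22.9 and 40.7 in LC. The altitudes did not overlap, and within each altitude the Tibetan and lowland libraries did. The difference was 1.60 ± 0.22 (SE) on the log2 scale (limma, adjusted p = 0.0077). The other 8 higher genes differed by 0.40 to 1.46 on the log2 scale (limma, adjusted p from 0.0042 to 0.049), at brain means of 30.8 to 233 FPKM.

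The gene that fell, ENSGALG00000028198, is the fourth in the enrichment rank, with a brain mean of 1086 FPKM. It was at 1196, 590 and 811 FPKM in TC, 154, 537 and 518 in HLC, 1585, 861 and 1884 in LTC, and 1914, 1615 and 1368 in LC. It was lowest in HLC replicate 1, and the altitudes overlapped, since TC replicate 1 lay above LTC replicate 2. The difference was -1.46 ± 0.33 (SE) on the log2 scale (limma, adjusted p = 0.045), and its r with KBP over the 12 libraries was 0.95. KBP and NEUROD1 moved with it between libraries, and their part in the altitude difference was not tested. Of the 10 higher genes, r with KBP ran from -0.77 to -0.40.

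Of the 11 genes, 3 passed the threshold under each of 18 other settings (other scalings, filters and pseudocount, a replicate block, and each library left out in turn), ENSGALG00000000317 and ENSGALG00000026903 among them, and all 11 kept their direction. Quantile normalization gave 10 higher and 3 lower. A replicate block left a count of 4. The count fell to 3 without LC replicate 1, LC replicate 2, TC replicate 2 or TC replicate 3, to 4 without HLC replicate 2 and to 6 without LC replicate 3, and rose to 20 without HLC replicate 3. The share of all genes past the threshold under these settings is not given here. A change particular to the brain-enriched genes therefore cannot be read from these counts. ENSGALG00000028198 kept its call in only 4 of the 18 settings, with adjusted p from 0.026 to 0.12.

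**Figure D4:**
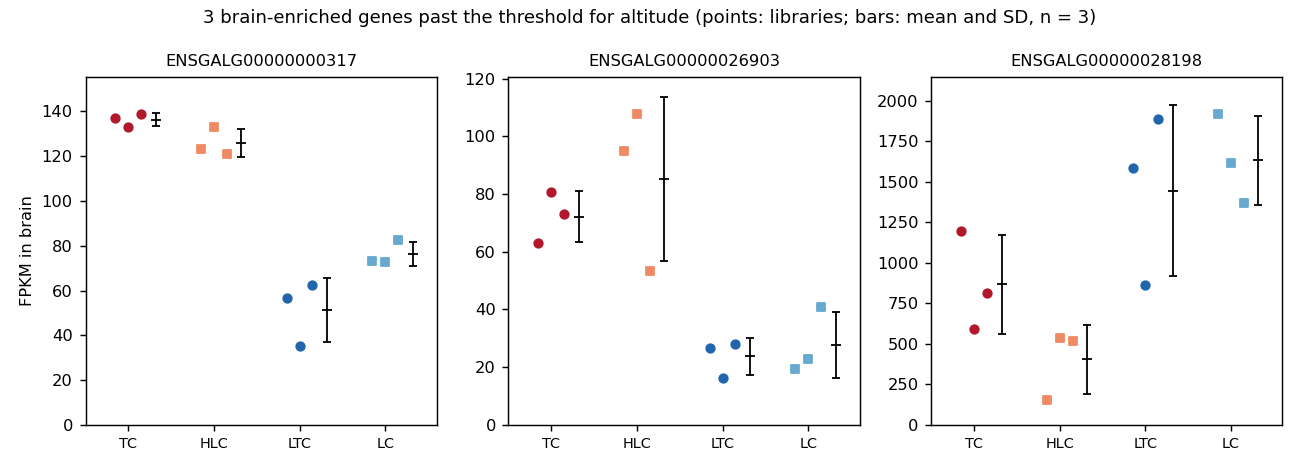
FPKM in the 12 brain libraries of the 2 higher genes and the lower gene named for altitude, each on its own scale from 0, with points for libraries and bars for the group mean and SD (n = 3). In ENSGALG00000000317 and ENSGALG00000026903 the TC and HLC libraries all lie above the LTC and LC libraries, and in ENSGALG00000028198 the altitudes overlap.

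No named gene passed the threshold for altitude. The largest difference was that of KBP, -1.07 ± 0.35 (SE) on the log2 scale (limma, adjusted p = 0.14), and only without HLC replicate 3 did it pass, at -1.32 (adjusted p = 0.038). NEUROD1 was at -0.55 ± 0.34 (adjusted p = 0.46), GPM6A at -0.38 ± 0.14 (adjusted p = 0.18) and SPOCK1 at -0.31 ± 0.12 (adjusted p = 0.19). On the positive side TUBB3 was at 0.45 ± 0.21 (adjusted p = 0.31) and SLC1A2 at 0.37 ± 0.26 (adjusted p = 0.51). The other 8 lay between -0.20 (SLC17A6) and 0.23 (CADM2).

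Beside these genes stand the other neural genes with a symbol. The 13 lists of neural function held 91 tested genes, 10 of them brain-enriched, of which 4 rose and 1 fell at 3300 m, none of them brain-enriched. Among all genes tested, 1.97% rose and 0.293% fell, and the lists were not tested against them. Those that rose were GRIK2, a kainate receptor subunit (0.64 on the log2 scale, limma, adjusted p = 0.027), GABRG1, a GABA-A receptor subunit (0.70, adjusted p = 0.036), ABAT, which breaks down GABA (0.40, adjusted p = 0.04997), and the transcription factor ZFHX3 (0.56, adjusted p = 0.038). HES5, a Notch target of neural progenitors, fell by 0.57 (adjusted p = 0.049). None of these genes was run under the other settings, where ENSGALG00000028198, also close to the threshold, kept its call in only 4 of 18. By list, these were 1 of 5 glutamate genes, 2 of 9 GABA and glycine genes, 1 of 10 transcription factors and RNA-binding proteins, and 1 of 3 genes of astrocytes and radial glia. None passed of 15 potassium channel, 17 adhesion and matrix, 10 postsynaptic, 7 vesicle release, 5 sodium and calcium channel, 5 cytoskeleton, 5 monoamine, acetylcholine and neuropeptide, and 2 immediate early genes, and the myelin list had no gene with a symbol. The median difference of the 91 genes was 0.12, against 0.04 for all genes. The counts by list matched symbols more widely than the total of 91 and held SLC1A2 under both glutamate and astrocyte genes, so they do not add up to it.

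The altitude difference was then taken within each type of chicken, on the same libraries. In Tibetan chickens, TC against LTC, 2 of the 198 genes were higher and none was lower (1.01%, against 0.379% of all genes tested). One was ENSGALG00000000317, at 1.43 ± 0.18 (SE) on the log2 scale (limma, adjusted p = 0.011), and the other had no symbol. Same-numbered TC and LTC libraries deviated together from their group means (r = 0.43, 0.45 and 0.37 across genes). With the replicate number as a block, 1 gene passed. That block set 1 effect per number for all 4 groups, whereas HLC replicate 1 deviated against TC replicate 1 (r = -0.66) and LTC replicate 1 (r = -0.45). It was therefore not a paired fit of TC and LTC. The count was 1 without LTC replicate 2, LTC replicate 3 or TC replicate 2, 0 without TC replicate 3, 4 without HLC replicate 2 and 5 without HLC replicate 3, since the lowland libraries share the estimate of the spread. As the share of all genes past the threshold in these fits is not given here, no change particular to the brain-enriched genes can be read from them. ENSGALG00000000317 lost its call without TC replicate 3 alone (adjusted p = 0.074). The 6 named genes of smallest p lay between -0.41 (GPM6A, adjusted p = 0.44) and 0.42 (SLC1A2, adjusted p = 0.71), with SPOCK1 at -0.25, GPR22 at -0.27, NRXN3 at 0.32 and GABARB at 0.24 between them.

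In lowland chickens, HLC against LC, no brain-enriched gene passed in limma (0.146% of all genes did), and 38 (19.2%) had an unadjusted p under 0.05, against 13.4% of all genes. The median log2 difference was 0.17 for the brain-enriched genes and 0.06 for all genes. This gap of 0.11 was 0.10 after upper quartile scaling and 0.02 after quantile normalization. Without HLC replicate 1 the medians were 0.03 for the brain-enriched genes and 0.05 for all genes, so the higher median of the brain-enriched genes rested on that library. KBP was at -1.66 ± 0.50 (SE) on the log2 scale (limma, adjusted p = 0.21) and NEUROD1 at -1.46 ± 0.49 (adjusted p = 0.24), and in both genes all 3 HLC libraries lay below all 3 LC libraries. How many of all genes did so was not counted. The 2 genes moved together over the brain libraries (r = 0.92), so they are not separate observations. SPOCK1 was at -0.38, GPM6A at -0.35, SLC17A6 at -0.29 and TUBB3 at 0.56, with adjusted p from 0.34 to 0.52. Leaving out HLC replicate 3 brought the count from 0 to 6 genes (4 higher, 2 lower), and KBP then passed (-2.17, adjusted p = 0.048) and NEUROD1 was at -1.93 (adjusted p = 0.059). Without HLC replicate 1 KBP was at -1.05 (adjusted p = 0.44) and NEUROD1 at -0.91 (adjusted p = 0.53). Leaving out LTC replicate 2 brought the count to 1. Beside these counts the share of all genes past the threshold is not given here.

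The interaction, which subtracts the lowland altitude difference from the Tibetan one, passed in no brain-enriched gene (0.0344% of all genes did), and 6 had an unadjusted p under 0.05, 3.03% against 6.47% of all genes. NEUROD1 had the smallest p of the named genes. Its altitude difference was 0.37 in Tibetan and -1.46 in lowland chickens, a gap of 1.84 ± 0.69 (SE) on the log2 scale (limma, adjusted p = 0.75). KBP was at 1.18, NRXN3 at 0.63, GABARB at 0.40, GPR22 at -0.28 and NELL2 at -0.43, with adjusted p from 0.76 to 0.80.

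Tibetan and lowland chickens were compared over both altitudes by setting TC and LTC together against HLC and LC together. No brain-enriched gene passed the threshold in limma (0.00861% of all genes did), and 5 (2.53%) had an unadjusted p under 0.05, against 4.53% of all genes. The astrocyte and receptor genes described above had the smallest p of the named genes. AQP4 was at 0.45 ± 0.14 (SE) on the log2 scale (limma, adjusted p = 0.89), GABARB at 0.35 ± 0.14 and SLC1A2 at 0.50 ± 0.26 (adjusted p = 0.998 for both). GPM6A was at 0.23, CADM2 at 0.22 and NRXN3 at 0.14.

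Within each altitude no brain-enriched gene passed either. For TC against HLC at 3300 m, 9 genes (4.55%) had an unadjusted p under 0.05 in limma, against 6.13% of all genes, of which 0.00861% passed the adjusted threshold. GABARB was at 0.55 ± 0.20 (SE) and AQP4 at 0.52 ± 0.19 on the log2 scale (limma, adjusted p = 0.74 for both), and NEUROD1 was at 0.98, KBP at 0.83, SLC1A2 at 0.55 and NRXN3 at 0.46. For LTC against LC at 670 m, 5 genes (2.53%) had an unadjusted p under 0.05, against 4.96% of all genes, and no gene of the table passed. AQP4 was at 0.38, SLC1A2 at 0.45, CADM2 at 0.28, GPM6A at 0.26, NRXN3 at -0.18 and NEUROD1 at -0.86 (limma, adjusted p from 0.87 to 0.90). Without LTC replicate 2 the value of SLC1A2 was -0.07, and without LTC replicate 3 its value for TC against LTC was -0.03, so these 2 directions rested on single libraries.

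The summed level of the 200 genes in brain was 26143 to 29917 FPKM in TC, 24368 to 33166 in HLC, 26394 to 27665 in LTC and 24711 to 27680 in LC. The lowest TC and LTC sums, both replicate 1, included 1201 and 306 FPKM from genes at 0 in every other brain library. The groups overlapped in sum, and HLC held both the lowest and the highest library of the 12. Brain columns summed to 464495 to 896066 FPKM in all. As a share of that, the 200 genes held 4.38, 4.53 and 4.82% in TC replicates 1 to 3. HLC had 5.19, 4.59 and 5.25%, LTC 4.01, 3.55 and 3.09%, and LC 3.30, 3.91 and 4.55%. Among libraries from 670 m, only LC replicate 3 reached the range of those from 3300 m. HLC replicate 3, lowest in sum, was highest in share. The shares were not tested between groups. HLC had the highest group mean for 91 of the 198 genes (46.0%, against 31.1% of the 5364 genes with a brain mean of at least 10 FPKM), TC for 36 (18.2%, against 29.3%), LTC for 36 (18.2%, against 26.1%) and LC for 35 (17.7%, against 13.6%). LC had the lowest group mean for 69 (34.8%, against 47.5%), LTC for 55 (27.8%, against 20.3%), TC for 38 (19.2%, against 13.9%) and HLC for 36 (18.2%, against 18.3%). Without HLC replicate 1, left out after these counts were seen, HLC had the highest group mean for 44 genes (22.2%, against 20.4%) and the lowest for 58 (29.3%, against 26.4%), so its lead among the highest means rested on that library. The median SD within groups was 0.30 on the log2 scale for the brain-enriched genes and 0.22 for those 5364 genes.

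Outside the brain the 200 genes together reached 74.1 to 145 FPKM in liver, 156 to 221 FPKM in lung and 81.0 to 370 FPKM in heart. The highest heart library was HLC replicate 1, at 370 FPKM, where the other 11 heart libraries held 81.0 to 168 FPKM. In it 92 of the 200 genes were at 1 FPKM or more, against 23 to 48 in the others. In 142 of the 200 genes (71.0%) it was the highest of the 12 heart libraries, as it was in 7.47% of the 10376 genes tested in heart, and this held for each of the 20 genes ranked highest. These 2 shares are of unlike sets, since the 10376 genes passed the heart filter and only 57 of the 200 genes did. A share among genes equally low in heart was not taken. The excess of HLC replicate 1 over the median of the other heart libraries came to 0.902% of the brain level in sum. Across the 200 genes this excess had a Spearman's rho of 0.79 with the brain mean. Genes are not independent replicates, and this rho is a description of 1 library. The choice of the genes used these same brain and heart means and allowed more heart signal where the brain level was higher. Part of this rho may therefore come from the choice. In liver, TC replicate 2 was highest, at 145 FPKM, with 32 of the 200 genes at 1 FPKM or more, against 14 to 24 in the other liver libraries.

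**Figure D5:**
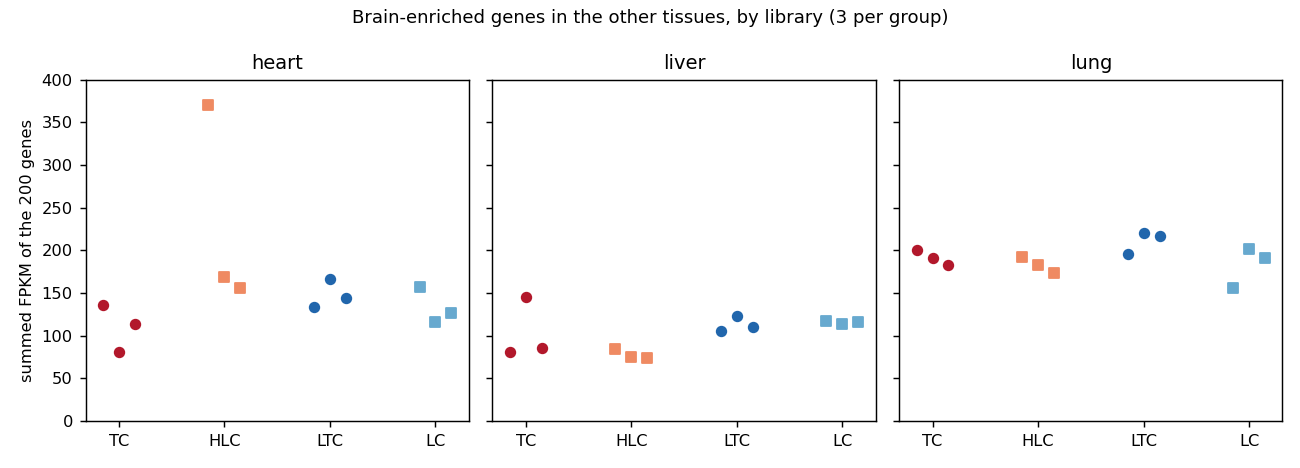
Summed FPKM of the 200 brain-enriched genes in each heart, liver and lung library, by group (3 points each). Heart HLC replicate 1 stands alone at 370 FPKM, and in liver TC replicate 2 is the highest, at 145 FPKM.

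In heart, 57 of the 200 genes passed the filter, none passed the threshold for altitude in limma (0.0193% of all genes tested there did), and 4 had an unadjusted p under 0.05 (7.02%, against 5.42% of all genes). The count was also 0 without HLC replicate 1. In liver, 26 passed the filter, 3 were higher at 3300 m and 7 lower (38.5%, against 51.3% of all genes tested). The median difference was -0.03 for the 26 genes and -0.25 for all genes, and quantile normalization, which set the latter to 0.00, gave 8 higher and 3 lower, and upper quartile scaling 4 higher and 3 lower. Under these scalings the share of all genes past the threshold is not given here. Genes that passed these filters are those with some signal in the tissue and do not stand for all 200.

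NELL2 was the only named gene called in liver. It was at 5.72, 6.49 and 5.61 FPKM in TC, 6.43, 2.55 and 6.94 in HLC, 13.1, 10.2 and 11.3 in LTC, and 8.18, 19.5 and 14.0 in LC. All 6 libraries from 3300 m lay below all 6 from 670 m, as in 14.2% of all genes tested in liver. In brain, where 0.465% of all genes did so, the altitudes overlapped and the difference was -0.08 (limma, adjusted p = 0.91). In liver it was -1.05 ± 0.22 (SE) on the log2 scale (limma, adjusted p = 0.0026), and 41.6% of all genes tested there were called lower. The difference between the tissues was not tested.

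In lung, 65 genes passed the filter, 2 were higher at 3300 m and 5 lower (10.8%, against 17.1% of all genes tested), and quantile normalization gave 8 higher and 3 lower. The count fell to 3 without LTC replicate 2 or LTC replicate 3 and to 4 without LC replicate 1. For these settings the share of all genes past the threshold is not given here. SPOCK1 was the only named gene called. It was at 1.41, 0.602 and 1.18 FPKM in TC, 0.661, 0.629 and 0.586 in HLC, 2.02, 4.25 and 4.50 in LTC, and 0.803, 1.41 and 1.71 in LC. The LTC libraries were highest, and the 2 altitudes overlapped through LC replicates 1 and 2. The difference was -0.80 ± 0.18 (SE) on the log2 scale (limma, adjusted p = 0.013).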

How the data were processed

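Per the labels, total RNA was extracted with TRIzol and libraries were made with an Illumina TruSeq RNA kit, and the submitters' processing notes name TopHat and Cufflinks 2.2.1 with the galGal4 assembly. The sources used here do not state the annotation release, read filters or options. The authors deposited 1 table of FPKM per gene and library. Its columns summed to 452395 to 896066 FPKM and carry no counts, so depth is unknown and no counting error could be given. Symbols came from gene lists that accompany the study's paper, which describes no RNA-seq, and synonyms from RefSeq (GRCg7b).

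Within a tissue, a gene entered the fit when 3 or more of the 12 libraries had 1 FPKM or more. Fits were made with limma 3.58.1 (R 4.3.3) on log2(FPKM + 1), with 1 mean per group and a moderated, trended variance. Tests were 2-sided. The script was tested on simulated data. Fold changes on this scale understate those of low genes. Correlation tests used 100000 permutations, made over all 12 libraries without regard to the groups. The members and the gene lists were chosen with earlier results of these data known. Named genes were the members with a symbol: the highest ranked, those past a threshold or with the 6 smallest p per contrast, the 4 most abundant per list, those of largest and smallest SD, and those at the rank limit by ID, and of members with no symbol at most 2 higher and 2 lower. Alternatives were a pseudocount of 0.1, no filter, a mean of at least 5 FPKM, quantile and upper quartile scaling, a replicate block, the top 100 genes, and leaving out each library.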

Additional observations from a re-analysis of the deposited data

How the results depend on the processing

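The depth of the libraries is unknown, so low levels outside brain carry an error that cannot be stated. Of the 10 counts of brain-enriched genes, those for chicken type, the interaction, TC against HLC, LTC against LC and heart stayed at 0 under every alternative run. The replicate block gave 4 genes for altitude in brain in place of 11 and 1 in place of 2 for TC against LTC. In brain only TC and LTC deviated together in all 3 numbers. The other pairs of groups there had correlations between -0.66 and 0.11, so for them the numbers are not shown to pair libraries. HLC and LTC had weaker positive correlations in all 3 numbers in heart (0.04, 0.05 and 0.29) and in lung (0.002, 0.17 and 0.03). The block changed no other call by more than 1.5 times. Quantile normalization gave 4 genes for TC against LTC, and 11 in lung in place of 7. The mean of at least 5 FPKM left 3 genes past the threshold in liver in place of 10, where only 4 members were tested. In lung it left 0, where only 6 members were tested. No filter gave 15 of 198 members tested in lung, and the top 100 genes gave 1 of 10 in liver and 4 of 31 in lung. Leaving out 1 library gave 3 to 20 genes for altitude, 0 to 5 for TC against LTC, 0 to 6 for HLC against LC, 7 to 10 in liver and 3 to 10 in lung. For none of these alternatives, in any tissue, is the share of all genes past the threshold given here.

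Of 301 values of single genes and of the correlation of KBP and NEUROD1 under the other settings, 294 kept their direction and side of the threshold. Most were of named genes with an adjusted p far above the threshold in the main fit, so keeping their side of it says little. GPM6A passed for altitude after quantile normalization alone (-0.41, limma, adjusted p = 0.022), and its LTC against LC value turned to -0.015 there. ENSGALG00000028198 lost its call in 5 of these settings (adjusted p up to 0.088). Leaving out 1 library turned the sign of 3 values: SLC1A2 ranged from -0.030 to 0.94 for TC against LTC and from -0.070 to 0.90 for LTC against LC, and GABARB ranged from -0.020 to 0.39 for TC against LTC. The correlation of KBP and NEUROD1, whose alternatives were chosen after seeing the data, ranged from 0.83 to 0.94.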
